A study of Mus musculus with 18 samples.

Results

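The genes described encode glycosyltransferases and sulfotransferases of the Golgi, the compartment in which sugar chains of membrane and secreted proteins are built. They were taken by symbol from RNA sequencing of E2-10HA, a mouse hybridoma line of mature T cells, as every gene named Galnt, B3galt, B4galt, B3gnt, St3gal, St6gal, St8sia, Fut, Mgat, Gcnt or Chst followed by a number or by "nac". Of 24391 genes in each of 2 tables, 95 matched, and 44 of these (46.3%) had a mean normalized value of at least 10 in either table, against 48.3% of all genes. A normalized value is a gene's read count divided by 1 scaling factor per library, as the authors deposited it. Of the 95, Fut4-ps1 is a pseudogene and St8sia3os is a transcript from the strand opposite St8sia3, and neither reached that mean. The rule uses gene symbols and this level, and no difference between groups.

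Glycosyltransferases act one after another, each passing a sugar from a nucleotide donor to a growing chain. Galnt enzymes start mucin-type O-linked chains on serine and threonine, Mgat enzymes set the branches of N-linked chains, and galactosyl- and N-acetylglucosaminyltransferases lengthen both. Fucosyl-, sialyl- and sulfotransferases cap or modify sugar chains. On T cells the finished chains form ligands of selectins, galectins and siglecs, and Notch receptors carry O-linked sugars that tune their response to ligands. RBPJ is the DNA-binding factor of the Notch pathway, which activates genes together with Notch and holds them down together with corepressors. L3MBTL3, a reader of methylated lysines, is known as a partner of RBPJ.

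For the knockdown, cells infected with a puromycin-selected pLKO.1 plasmid with an L3MBTL3 hairpin (shRNA_1) gave 3 libraries and cells with a scramble hairpin the other 3, so a single hairpin stands for the knockdown. In the rescue experiment all cells were depleted of RBPJ and infected with a blasticidin-selected pMY-Bio plasmid that was empty, held RBPJ WT or held the mutant RBPJ F261A/A284V, with 4 libraries each. How RBPJ was depleted, and whether replicates came from separate cultures or infections, the labels do not say. The p-values therefore rest on the spread among these libraries alone, and that spread may be technical. Recovered reads ran from 4882485 to 6129134 per knockdown library, from 5923799 to 7921533 in rescue replicates 1 and 2, and from 3553505 to 4239479 in rescue replicates 3 and 4, and these 2 sets of replicates are named apart below. The mutant replicates 3 and 4, the RBPJ WT replicates 1 and 2, and likewise the first 2 of the empty vector, were closer to each other than sampling noise. Their chi-square per degree of freedom was 0.70 to 0.85, under the limit of 1, so each pair was counted as 1 sample. Empty vector replicates 3 and 4, at 1.06, were near that limit and were kept as 2 samples. Rescue means are therefore over 3. These means lean on replicates 3 and 4 for the empty vector and RBPJ WT, and on replicates 1 and 2 for the mutant. Differences between the sets enter them, so groups are compared by the fits and not by these means.

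The label of a mature T cell was checked against markers. Of 11 T cell markers in the tables, 10 had a mean of at least 10, among them Cd3e, Cd3d and Cd3g, while Cd5 did not pass 6.14 in any library. Summed myeloid markers ran from 149 to 376 per library, and summed NK and innate lymphoid markers from 42.2 to 124. Summed erythroid markers reached at most 28.5, in a hairpin library, and 1 of 3 had a mean of at least 10 in the knockdown. Summed B cell markers reached at most 16.4, stromal markers 2.46 and epithelial markers 1.87. Rbpj itself read 317, 317, 255 and 272 with the empty vector, 644, 627, 802 and 818 with RBPJ WT and 729, 685, 922 and 919 with the mutant, without overlap between the empty vector and either RBPJ form. L3mbtl3 read 467, 447 and 352 in scramble replicates 1 to 3 and 394, 371 and 369.6 with the hairpin, a log2 difference of -0.15 (SE 0.11, adjusted p = 0.402 with limma). Scramble replicates 1 and 2 lay above all 3 hairpin libraries and scramble replicate 3 lay below them. The transcript thus does not clearly bear out the hairpin label, and groups of the knockdown are named by their labels throughout. Bulk RNA cannot tell fewer cells of a type from less RNA per cell.

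Every one of the 12 families had at least 1 expressed gene, but the share differed. B3galt had 4 of 5 above a mean of 10, St3gal 4 of 6, Galnt 9 of 16, B4galt 4 of 7, Mgat 5 of 10 and St6galnac 3 of 6. Fut had 4 of 9, B3gnt 3 of 8, Chst 5 of 14, St6gal 1 of 2, Gcnt 1 of 5 and St8sia 1 of 7. Of the 51 genes below it, 10 were at 0 in all 18 libraries, among them St8sia2 and St6gal2. Gcnt1, which builds core 2 O-glycans, averaged 3.35 in the knockdown table and 1.84 in the rescue table, and Fut4, an α1,3-fucosyltransferase of leukocytes, averaged 0.160 and 0.272. Nearest to the limit, Chst1 (2.37 and 18.6), St6galnac2 (18.1 and 12.2) and Chst14 (12.5 and 16.0) were just inside, and Mgat3 (8.38 and 3.31), St3gal5 (7.77 and 5.45) and B3gnt8 (6.26 and 6.35) just outside. A further filter for the tests, a value of at least 10 in 3 knockdown or 4 rescue libraries, left 43 of the 44 in the knockdown, where Chst1 was too low, and all 44 in the rescue.

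**Figure D1:**
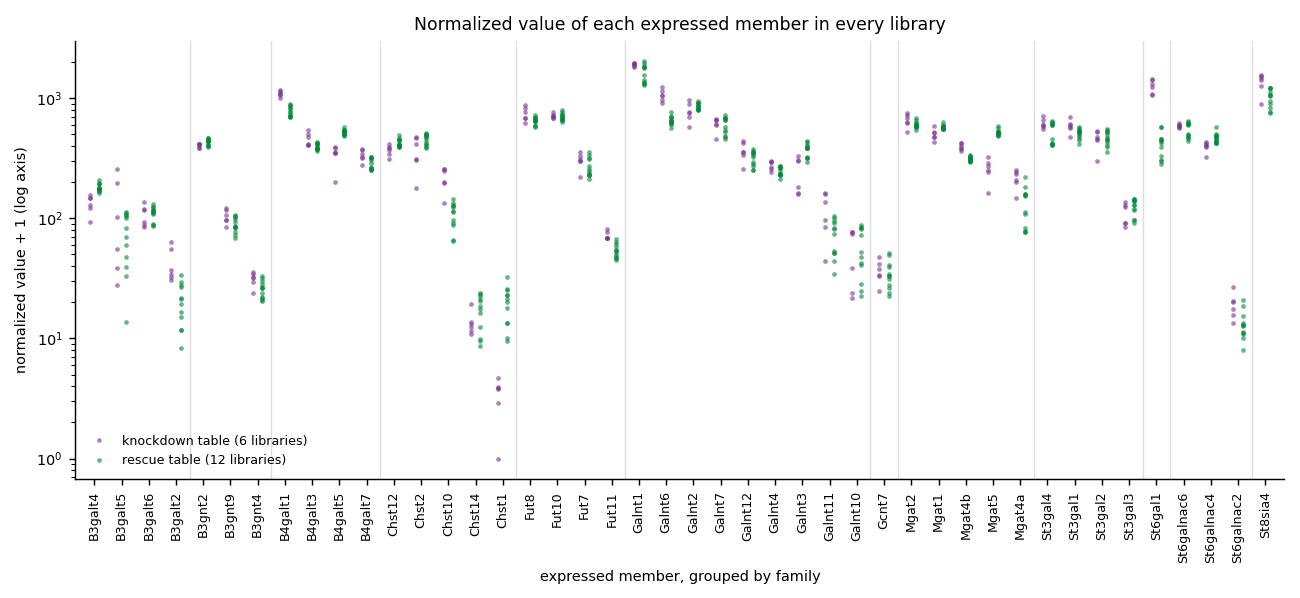
Normalized value plus 1 (log axis) of the 44 expressed genes in each library, grouped by family, with the 6 knockdown libraries in purple and the 12 rescue libraries in green. Within a table most genes hold a narrow band, while B3galt5, Galnt10, Galnt11 and Mgat4a spread widely, and Chst1 is seen mainly in the rescue table.

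Levels of different genes were compared per kilobase of exon, with lengths from the GENCODE annotation of GRCm38. Galnt1, a broadly acting starter of O-glycans, ranked highest in both tables, at 344 per kilobase in the knockdown (above 95.4% of expressed genes) and 295 in the rescue (above 94.2%). Galnt6, B4galt1, St6gal1 and Mgat2 followed in the knockdown table at 275, 258, 255 and 251 per kilobase. Mgat2, Galnt2, B4galt1 and Chst12 followed in the rescue table at 230.4, 199.9, 183 and 181 per kilobase. St6gal1, which adds α2,6-linked sialic acid to N-glycans, stood at rank 4 in the knockdown table and at rank 21 in the rescue table (84.2 per kilobase). The tables were normalized separately, and the infected plasmids, the selection drug and the RBPJ depletion differ between them, so no test was made across them. The median of the 44 was 80.6 per kilobase in the knockdown table and 77.9 in the rescue table. The genes lie on 15 chromosomes, and 9 share exon bases with another gene of the tables, 8 of them antisense. The antisense pairs are B4galt3 with Ppox, St3gal4 with 4930581F22Rik, Mgat5 with Tmem163, Galnt7 with AW046200, B3galt2 with Cdc73, B3gnt4 with Diablo, B3gnt9 with D230025D16Rik and St6galnac2 with 1810032O08Rik, and Galnt4 overlaps Poc1b on the same strand. No source used here says how reads were assigned to strands, so values of these genes may hold reads of their partners.

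Of the genes with the highest mean normalized value in their family in either table, Galnt1, B4galt1, Chst12, St6galnac6, B3galt4, B3gnt2, Gcnt7 and Fut10 were called in none of the 4 comparisons with group only, the block or the set in the fit. B3galt4, which adds galactose to ganglioside chains, averaged 119 ± 26.4 with scramble and 143 ± 14.9 with the hairpin (SD, n = 3 each). B3gnt2, which builds poly-N-acetyllactosamine, averaged 402 ± 16.0 and 403 ± 15.9, and Gcnt7 averaged 33.7 ± 8.60 and 37.4 ± 8.38. Fut10 had the highest mean normalized value of the Fut genes in the rescue table, and per kilobase it led them in both tables. In the rescue it averaged 684 ± 36.2 with the empty vector, 705 ± 38.6 with RBPJ WT and 712 ± 56.1 with the mutant.

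In the libraries labelled L3MBTL3 shRNA, 4 of the 43 genes rose against scramble and 2 fell (14.0%; 3.32% of all 11586 genes were called, 2.21% higher and 1.11% lower). The 4 were B3galt5, Galnt10, St3gal3 and Fut8, and the 2 were Galnt3 and B4galt3, at most 2 from any family. A call is an adjusted p under 0.05 over all genes tested. The median log2 difference of the 43 was 0.18, against -0.01 over all genes, with 31 positive and 12 negative. Groups did not overlap for 20 of the 43 (46.5%), against 35.2% of all genes.

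B3galt5 builds type 1 chains by adding β1,3-linked galactose to N-acetylglucosamine. It read 54.3, 37.4 and 27.0 in scramble replicates 1 to 3 and 258, 197 and 102 in the hairpin libraries. All 3 hairpin libraries lay above all scramble libraries, and replicate 3 was lowest in both groups. The means were 186 ± 78.6 against 39.6 ± 13.7 (SD, n = 3 each), a log2 difference of 2.16 (SE 0.36, adjusted p = 0.0348). Galnt10, which adds N-acetylgalactosamine mainly to peptides that already carry it, read 37.4, 23.0 and 20.9 with scramble and 73.0, 75.6 and 75.8 with the hairpin. The hairpin libraries were nearly equal and stood apart from every scramble library (log2 1.48, SE 0.24, adjusted p = 0.0343).

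St3gal3 caps galactose with α2,3-linked sialic acid, and it rose evenly. It read 84.2, 90.1 and 89.7 with scramble and 124, 128 and 134 with the hairpin (log2 0.54, SE 0.11, adjusted p = 0.0489). Fut8, the only enzyme that adds α1,6-linked core fucose to N-glycans, read 681, 680.3 and 623 with scramble and 867, 819 and 765 with the hairpin (log2 0.30, SE 0.07, adjusted p = 0.0492). In both genes every hairpin library exceeded every scramble library, by less than 2-fold in the means.

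Galnt3, another starter of O-glycans and known for protecting the hormone FGF23 from cleavage, moved the other way. It read 328, 301 and 302 with scramble and 159, 159.9 and 182 with the hairpin, falling to 167 ± 13.4 from 311 ± 15.5 (log2 -0.89, SE 0.09, adjusted p = 0.0236). The highest hairpin library was far below the lowest scramble library. B4galt3, which adds β1,4-linked galactose, read 475, 501 and 537 with scramble and 416, 405 and 403 with the hairpin (log2 -0.30, SE 0.06, adjusted p = 0.0491). Within the Galnt family, Galnt10 thus rose and Galnt3 fell, while Galnt1 (1894 ± 67.3 against 1900.4 ± 43.5) and Galnt6 (1061 ± 92.0 against 1067 ± 164) did not pass the test.

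**Figure D2:**
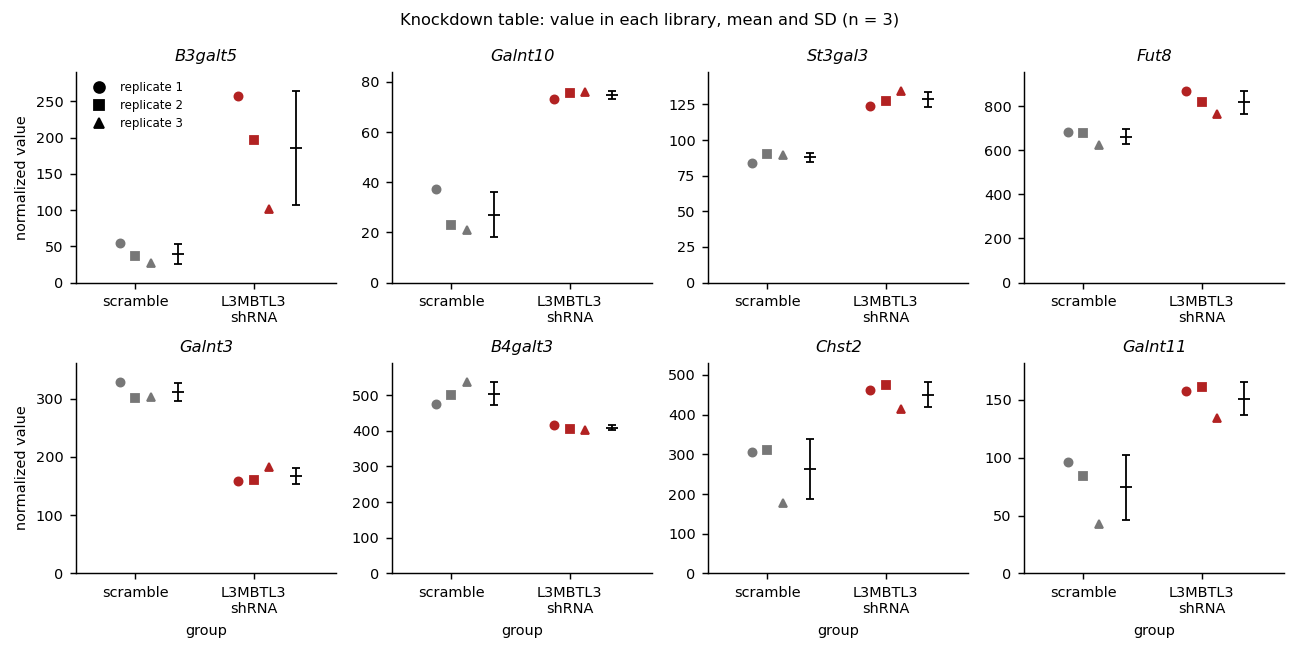
Normalized values of 8 genes in each library of the knockdown table, with marker shape for the replicate number and bars for the mean and SD (n = 3). The first 6 panels are the called genes, and Chst2 and Galnt11 show scramble replicate 3 well below replicates 1 and 2 of its group.

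The replicate number entered as a pair term (the paired fit) raised the count to 16 higher and 5 lower (48.8%; 22.2% of all genes, 13.5% higher and 8.71% lower). The added higher genes were the galactosyltransferase B3galt6, the sulfotransferases Chst2 and Chst10, the O-glycan starters Galnt2, Galnt11 and Galnt12, the N-glycan branching genes Mgat1, Mgat2 and Mgat5, and the sialyltransferases St3gal2, St6gal1 and St8sia4. The added lower genes were B3galt2, B4galt7 and St3gal4. The labels do not state that same-numbered libraries form pairs. Chst2, which sulfates N-acetylglucosamine in L-selectin ligands, read 305, 310.5 and 177 with scramble and 462, 475 and 415 with the hairpin (log2 0.81, adjusted p = 0.0613 unpaired and 0.000580 paired). Galnt11, described as a modifier of Notch1, read 96.4, 84.3 and 43.0 with scramble and 158, 161 and 134 with the hairpin (log2 1.08, adjusted p = 0.0668 and 0.00140). Neither gene overlapped between the groups, and in both scramble replicate 3 was the lowest of the 6 libraries.

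St6gal1 read 1238, 1079.9 and 1058 with scramble and 1399, 1428 and 1319.9 with the hairpin, without overlap (log2 0.30, adjusted p = 0.0592 unpaired and 0.00357 paired). Mgat1, which opens the way to complex N-glycans, Mgat2, which starts their second arm, and Mgat5, which adds the β1,6 branch, differed by log2 0.23, 0.29 and 0.45, with paired adjusted p of 0.0239, 0.00540 and 0.0203. Mgat4a and Mgat4b, which add the β1,4 branch, did not pass the test in either fit. St8sia4, a polysialyltransferase, read 1401, 1463 and 895 with scramble and 1514, 1545 and 1260.4 with the hairpin, and its groups overlapped (paired adjusted p = 0.0437). B3galt6 and B4galt7 add neighbouring galactoses of the linker that joins glycosaminoglycans to proteins, and their differences had opposite signs (log2 0.49 and -0.24, paired adjusted p = 0.0203 and 0.0496). St3gal4, a sialyltransferase of selectin ligands, was lower by log2 -0.19 (paired adjusted p = 0.0343).

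Scramble replicate 3 bears on these counts. It was the lowest of the 6 libraries for 25 of the 43 genes and the highest for 7, against 34.2% and 35.8% of all genes tested, and had the fewest reads of the knockdown. Without it, 9 genes were higher and 2 lower, while calls over all genes also went up, from 385 to 1032 (8.95%), and St8sia4 came to a log2 difference of 0.00 in place of 0.23. Without scramble replicate 2, hairpin replicate 1 or hairpin replicate 2, no member and no other gene tested was called, and without hairpin replicate 3 Galnt3 was the 1 member among 5 genes called. Those 4 fits put between 15 and 20 of the 43 at an unadjusted p under 0.05 (34.9% to 46.5%), and between 14.4% and 25.2% of all genes. Summed myeloid markers, mainly Cd68 with Cd14 at 0, ran from 333 to 376 with scramble and from 236 to 306 with the hairpin. Summed NK and innate lymphoid markers, mainly Tbx21 with Ncr1, Klrk1 and Eomes at 0, ran from 72.5 to 83.4 and from 110.5 to 124. The part of either in these differences was not tested.

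The genes that supply and surround these enzymes were read from lists of other Golgi glycosyltransferases, Golgi mannosidases, sugar and sulfate donor supply, glycosaminoglycan synthesis and the COG tethering complex. Of their 81 tested genes, 4 rose and none fell in the hairpin libraries (4.94%, near the 3.32% of all genes), and 18 were higher and 4 lower in the paired fit (27.2%, against 22.2% of all genes). Rfng, a fringe enzyme that lengthens O-fucose on Notch, was the only call among 19 other glycosyltransferases (log2 0.93, SE 0.14, adjusted p = 0.0328). Man1a2 and Man2a2, which trim mannoses of N-glycans, were the calls among 5 mannosidases (both log2 0.29, adjusted p = 0.0348). Slc35a1, which carries CMP-sialic acid into the Golgi, was the call among 31 donor supply genes (log2 0.59, SE 0.12, adjusted p = 0.0479). None of 18 glycosaminoglycan genes and none of 8 COG genes was called with group only. In the paired fit 4 of the other glycosyltransferases, 3 mannosidases, 4 donor supply genes, 7 glycosaminoglycan genes and 4 COG genes were called. The medians of the 5 lists lay between 0.00 and 0.24.

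**Figure D3:**
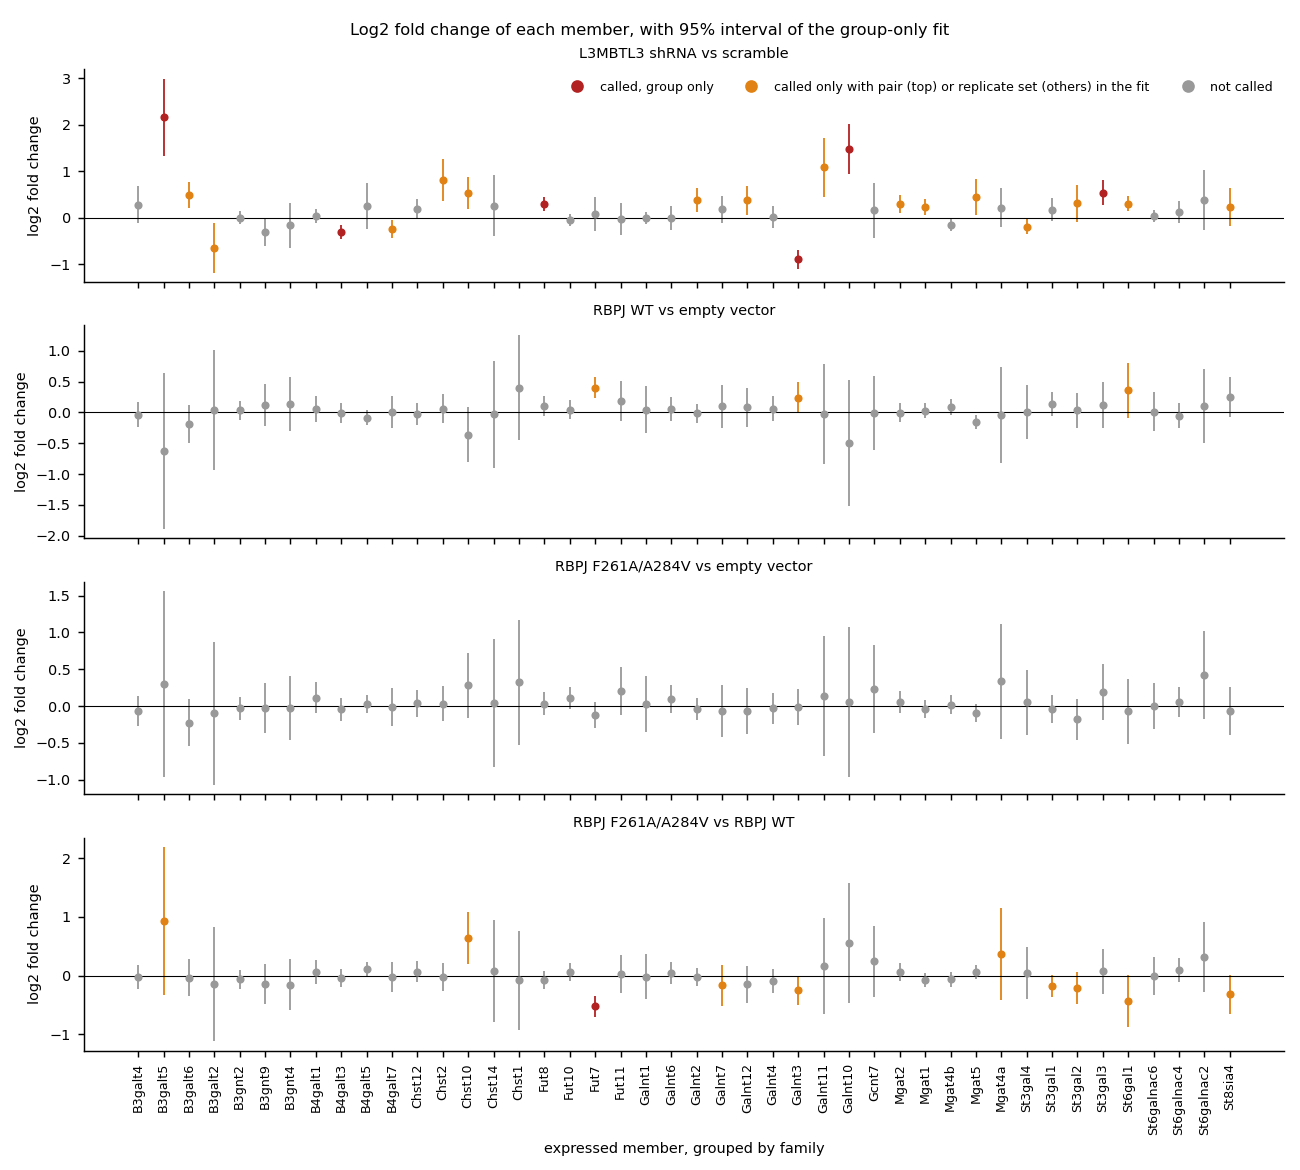
Log2 difference of every tested gene with its 95% interval from the fit with group only, in the 4 comparisons. Red points were called in that fit, orange points only with the pair (knockdown) or the set (rescue) in the fit, and no point is red or orange for the mutant against the empty vector.

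Putting back RBPJ WT raised no member and lowered none against the empty vector in the fit with group only (0 of 44, against 0.248% of all 11691 genes). In that fit 2 had an unadjusted p under 0.05 (4.55%, near the 3.4% of all genes), and edgeR also called 0 (0.24% of all genes). The replicate sets of the rescue (1 and 2, 3 and 4) stand apart over all genes, so the set was also entered as a term, which is called the fit with the set. Then 3 of 44 rose and none fell (6.82%; 2.42% of all genes, 1.1% higher and 1.32% lower): Fut7, St6gal1 and Galnt3. Of 7 myeloid markers in the rescue, 3 had a mean of at least 10 and S100a8 was at 0. Their sum ran from 186 to 219 with the empty vector and from 149 to 178 with RBPJ WT, without overlap. Their part in these differences was not tested. The same 3 genes were called when near-identical libraries were merged (6.82%, against 1.52% of all genes, 0.667% higher and 0.855% lower). Merged, the adjusted p was 0.00219 for Fut7, 0.00198 for St6gal1 and 0.0487 for Galnt3, the last just under the threshold. The fit with the replicate number as block also called St8sia4 (9.09%, against 2.23% of all genes). Over all 12 libraries the groups did not overlap for 3 of 44 (6.82%; 3.34% of all genes), Fut7, Mgat4b and Mgat5.

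For RBPJ WT the 5 largest differences in size among genes that averaged at least 50 in one of the groups were those of B3galt5 (-0.62), Galnt10 (-0.50), Fut7, Chst10 (-0.36) and St6gal1, and those of B3galt5, Galnt10 and Chst10 did not pass the test with group only or with the set.

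Fut7 adds the α1,3-linked fucose that completes sialyl Lewis x, the core of leukocyte selectin ligands. It read 271, 256, 230.0 and 235 in empty vector replicates 1 to 4, 308, 317, 358 and 332 with RBPJ WT and 229.6, 247, 211 and 226 with RBPJ F261A/A284V. Every RBPJ WT library lay above every other library, while empty vector and mutant overlapped. The means were 243 ± 18.3, 334 ± 22.6 and 232 ± 14.1 (SD, n = 3 each). RBPJ WT exceeded the empty vector by log2 0.40 (SE 0.08, adjusted p = 0.0927 with group only and 0.000856 with the set), at 0.25 within replicates 1 and 2 and 0.56 within replicates 3 and 4.

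St6gal1 read 459.6, 455, 296 and 327 with the empty vector, 569.9, 579, 392 and 422 with RBPJ WT and 445, 436, 302 and 282 with the mutant. In each set both RBPJ WT libraries stood above all 4 others, but every group was lower in replicates 3 and 4 than in replicates 1 and 2, so the groups overlapped over all 12 libraries. The difference of RBPJ WT from the empty vector was log2 0.36 (adjusted p = 1.00 with group only and 9.46e-05 with the set), and 0.33 and 0.39 within the sets. Galnt3 read 382, 386, 320.3 and 313 with the empty vector, 438, 428, 386 and 396 with RBPJ WT and 403, 386, 314 and 291 with the mutant, and RBPJ WT was again the highest in each set (log2 0.24, adjusted p = 0.0144 with the set). Fut7 and St6gal1 were called in all 8 fits with the set that each left out 1 library, and Galnt3 in 5, missing without empty vector replicate 1 or RBPJ WT replicate 3 or 4. Leaving out 1 library of a near-identical pair keeps its partner in the fit, so those fits are no independent check. St8sia4 read 1069, 1047, 819 and 891 with the empty vector, 1209, 1201, 943 and 1212 with RBPJ WT and 1130.2, 1056, 765 and 744 with the mutant, and differed by log2 0.26 between RBPJ WT and empty vector (adjusted p = 0.0533 with the set and 0.0391 with the block).

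**Figure D4:**
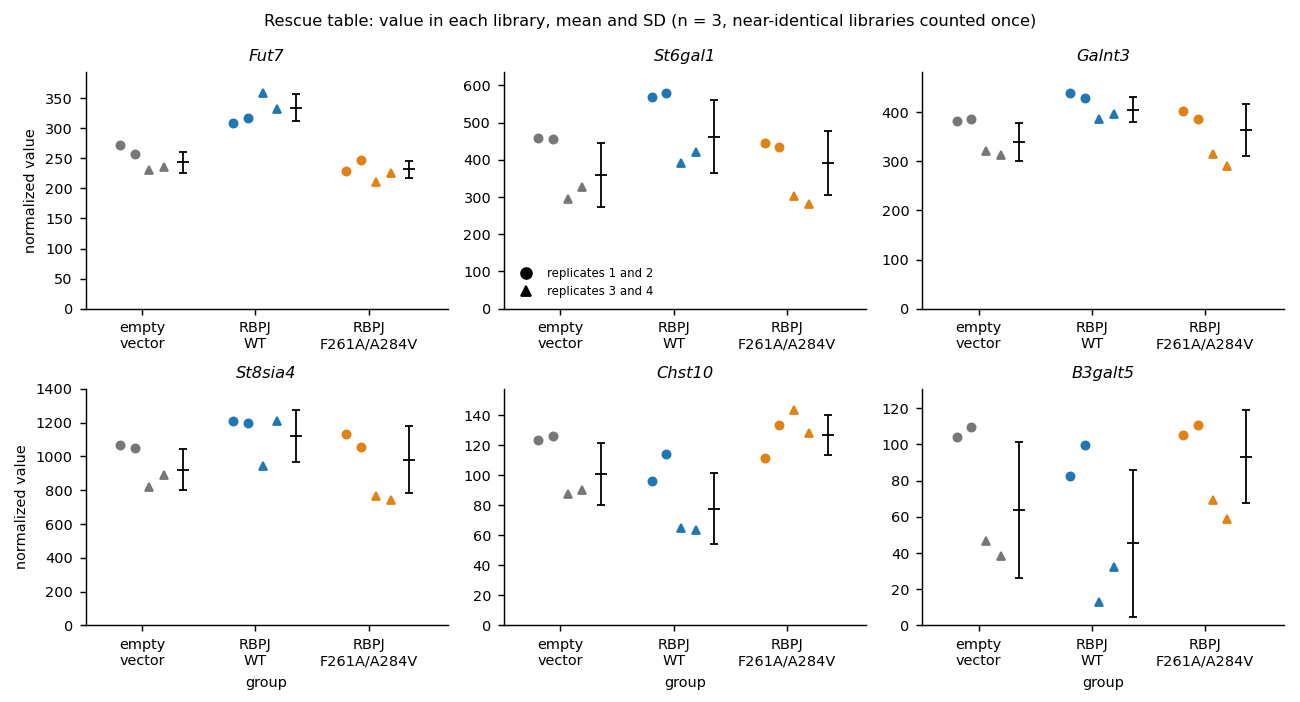
Normalized values of 6 genes in each rescue library, circles for replicates 1 and 2 and triangles for replicates 3 and 4, with bars for the mean and SD (n = 3, near-identical libraries counted once). The bars weigh the replicate sets unequally between the groups. RBPJ WT is highest for Fut7 in all libraries and for St6gal1 and Galnt3 within each set, while the spread of Chst10 and B3galt5 between groups is wider in replicates 3 and 4.

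For RBPJ WT against the empty vector, Fut7 and St6gal1 were called in all 8 fits with the set that each left out 1 library. Neither was called with group only. The bases before their starts are shown because RBPJ binds DNA at the core TGGGAA. They are 250 bases in front of an annotated start, read from RefSeq's GRCm38.p6 in the direction of the gene, and capitals mark the core. St6gal1 has 3 such starts and holds the core before 1 of them, 64 bases upstream, at chr16:23290220-23290469 on the + strand.
St6gal1: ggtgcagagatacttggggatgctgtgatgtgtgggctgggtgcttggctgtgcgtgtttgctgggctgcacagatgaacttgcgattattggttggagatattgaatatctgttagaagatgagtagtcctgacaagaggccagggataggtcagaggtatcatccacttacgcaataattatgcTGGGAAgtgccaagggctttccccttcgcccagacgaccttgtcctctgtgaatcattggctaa
Fut7 has 2 starts, at chr2:25422992-25423241 and chr2:25423444-25423693 on the + strand, and no core in either window.
Fut7 first: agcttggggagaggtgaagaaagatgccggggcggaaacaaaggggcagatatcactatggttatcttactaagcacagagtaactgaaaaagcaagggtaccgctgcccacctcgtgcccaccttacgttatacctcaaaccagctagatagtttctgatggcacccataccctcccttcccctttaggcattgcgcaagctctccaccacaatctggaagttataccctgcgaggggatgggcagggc
Fut7 second: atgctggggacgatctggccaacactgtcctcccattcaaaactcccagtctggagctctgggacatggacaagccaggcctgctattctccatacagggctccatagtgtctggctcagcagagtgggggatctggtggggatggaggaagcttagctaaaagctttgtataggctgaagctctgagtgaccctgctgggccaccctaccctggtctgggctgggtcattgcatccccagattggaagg
Promoters were listed for 34 of the 44 genes, and the core, searched on both strands, was found for 9 of them (26.5%), against 24.1% of 27025 genes. The windows also read for Galnt3, B3galt5, Galnt10 and Chst10 held no core. The longer form GTGGGAA was found for 2 (5.88%), B3gnt4 and St6galnac4, against 6.18% of all genes. A match of letters is not a binding site, and these data hold no measure of binding.

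RBPJ F261A/A284V did not pass the test against the empty vector for any of the 44 genes, with group only (0.0171% of all genes called), with the set (0.693%), with the block (0.65%) or with near-identical libraries merged (0.0941%). With group only, 0 had an unadjusted p under 0.05 (2.05% of all genes) and edgeR called 0 (0.0171% of all genes). With the set, 7 had an unadjusted p under 0.05 (15.9%, near the 11.9% of all genes). The groups did not overlap for 1 of 44, Mgat5 (2.27%; 1.92% of all genes). The median difference was 0.02, against 0.01 over all genes. For Fut7 the difference was -0.12 (95% interval -0.30 to 0.06), for St6gal1 -0.07 (-0.52 to 0.37) and for Galnt3 -0.01 (-0.26 to 0.23). The 5 largest differences among genes with a mean of at least 50 were those of Mgat4a (0.34), B3galt5 (0.30), Chst10 (0.28), B3galt6 (-0.22) and Fut11 (0.20). The comparison shares its empty vector libraries with that of RBPJ WT, and an interval that spans 0 does not show equal levels.

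Compared directly with RBPJ WT, the mutant had 1 gene lower and none higher with group only (2.27%; 0.316% of all genes, 0.231% higher and 0.0855% lower). It was also the 1 gene without overlap between the groups (2.27%; 3.7% of all genes). The gene was Fut7 (log2 -0.52, SE 0.08, adjusted p = 0.0150), at -0.39 within replicates 1 and 2 and -0.65 within replicates 3 and 4. Its adjusted p rose to between 0.0581 and 0.0713 without RBPJ WT replicate 3 or 4 or mutant replicate 3 or 4. With the set in the fit, 3 genes were higher and 7 lower (22.7%; 5.12% of all genes, 2.61% higher and 2.51% lower), and with near-identical libraries merged 1 was higher and 2 lower (6.82%; 1.96% of all genes, 1.08% higher and 0.881% lower). The block gave 2 higher and 6 lower (18.2%; 4.74% of all genes, 2.51% higher and 2.23% lower).

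The 7 lower genes in the fit with the set were the fucosyltransferase Fut7, the sialyltransferases St6gal1, St8sia4, St3gal1 and St3gal2, and the O-glycan starters Galnt3 and Galnt7. St6gal1 was lower by log2 -0.43 (adjusted p = 6.10e-06 with the set and 0.000476 merged), at -0.38 and -0.48 in the sets. St8sia4 differed by -0.32, at -0.14 and -0.50, and Galnt3 by -0.25, at -0.14 and -0.37, with the larger difference in replicates 3 and 4. Neither passed when near-identical libraries were merged (adjusted p = 0.0598 and 0.0599). St3gal1, which caps core 1 O-glycans, St3gal2 and Galnt7 were lower by log2 -0.17, -0.21 and -0.17 (adjusted p = 0.0402, 0.0148 and 0.0348 with the set), and were called in 3, 6 and 3 of the 8 fits that left out a library.

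The 3 higher genes were Chst10, B3galt5 and Mgat4a. Galnt10 had a difference of 0.55 and did not pass (adjusted p = 0.0669 with the set). Chst10, which sulfates the HNK-1 epitope, read 123, 126, 87.6 and 90.2 with the empty vector, 96.2, 114, 65.0 and 63.3 with RBPJ WT and 111, 133, 143 and 128 with the mutant. Both mutant libraries of replicates 3 and 4 lay far above the RBPJ WT libraries of that set, while in replicates 1 and 2 mutant replicate 1 lay between the 2 RBPJ WT libraries. The difference was log2 0.64 (adjusted p = 0.00553 with the set and 0.0423 merged), at 0.21 and 1.07 in the sets. B3galt5 read 104, 109.8, 46.5 and 38.2 with the empty vector, 82.6, 99.5, 12.7 and 32.3 with RBPJ WT and 105, 111, 69.3 and 58.8 with the mutant. Its difference of 0.92 (adjusted p = 0.0227 with the set, 0.0981 merged) was 0.25 in replicates 1 and 2 and 1.60 in replicates 3 and 4, where RBPJ WT replicate 3 read 12.7. Mgat4a differed by 0.37 (adjusted p = 0.0376 with the set) and was called in 1 of 8 fits that left out a library, against 5 for B3galt5 and all 8 for Fut7, St6gal1, St8sia4, Galnt3 and Chst10. Some of these fits kept the near-identical partner of the library left out and are no independent check. Summed myeloid markers ran from 149 to 178 with RBPJ WT and from 189.6 to 244 with the mutant. Of these 7 markers 3 had a mean of at least 10 in the rescue and S100a8 was at 0, and their part in these differences was not tested. None of the 81 genes of the pathway lists was called in a rescue comparison with group only; with the set, Man2a2 rose with RBPJ WT, and Csgalnact2 and Cog4 were lower with the mutant than with RBPJ WT.

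The 2 replicate sets of the rescue differed in the levels of these genes within every group. Replicates 3 and 4 did not overlap replicates 1 and 2 for 16 of the 44 (36.4%), against 47.5% of all genes: 7 were higher (26.2% of all genes) and 9 lower (21.3%). The median difference of the 44 was -0.15 on the log2 scale, against -0.02 over all genes. The sets were seen in the values of all genes, so this is a description and was not tested. Since the deeper libraries are those of replicates 1 and 2, depth and the sets cannot be told apart.

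Of genes that averaged at least 50 in either set, the 5 with the largest difference between the sets were B3galt5, Galnt10, Mgat4a, Galnt11 and St6gal1, all lower in replicates 3 and 4. B3galt5 ran from 82.6 to 111 in the 6 libraries of replicates 1 and 2 and from 12.7 to 69.3 in those of replicates 3 and 4, and Galnt10 from 51.2 to 86.2 and from 21.7 to 46.5. Mgat4a ran from 153 to 219 and from 75.3 to 112, and it differed by log2 -1.12, -0.97 and -0.76 between the sets in empty vector, RBPJ WT and mutant. Higher in replicates 3 and 4 were St3gal4 (409 to 457, then 594 to 644), Galnt1 (1292 to 1555, then 1765 to 2047), St6galnac6, B4galt7, B4galt1, B4galt3 and Galnt2. B3galt5, Galnt10 and Galnt11 are also among the genes with the largest differences in the knockdown. Fut7 had no such shift, with differences between the sets of -0.18, 0.14 and -0.12 in the 3 groups.

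**Figure D5:**
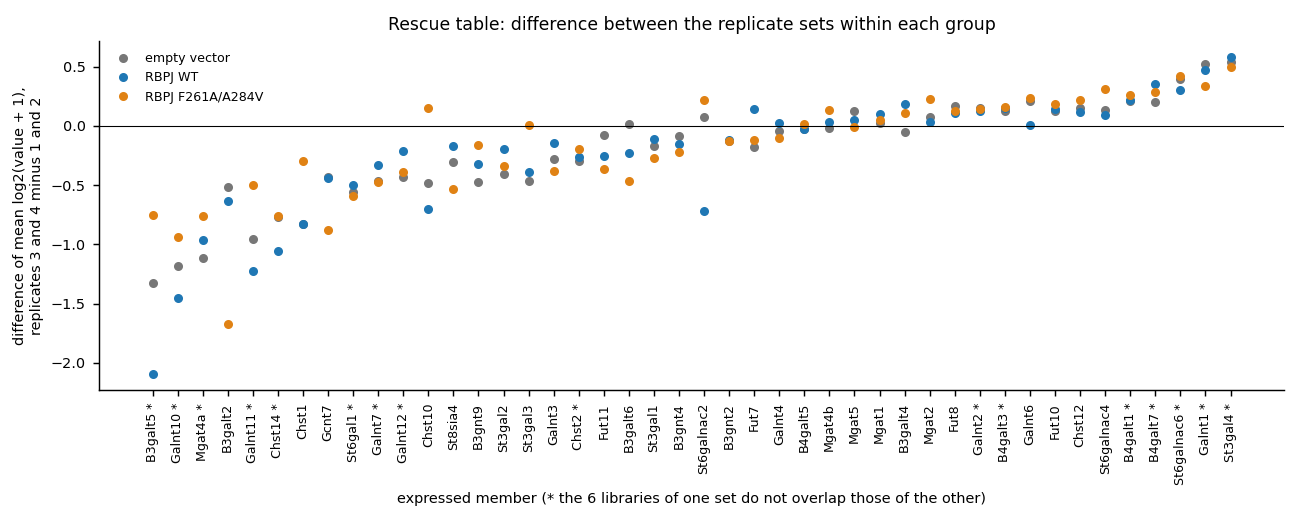
Difference of mean log2(value + 1) between rescue replicates 3 and 4 and replicates 1 and 2, for each of the 44 genes within each group, ordered by the mean of the 3 groups. An asterisk marks the 16 genes whose 6 libraries of one set do not overlap those of the other; B3galt5 is at the low end, at -0.75 to -2.10, and St3gal4 at the high end, at 0.50 to 0.58.

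Summed over all 95 genes, the values ran from 16579 to 18755 with scramble and from 18862 to 20141 with the hairpin. They ran from 16209 to 17227 per rescue library, and made up between 0.276% and 0.353% of a library's reads. Sums were described and not tested. By family, the 16 Galnt genes held the largest sum, 5058 to 5635 in the knockdown and 4513 to 5111 in the rescue. The Chst sum ran from 635 to 906 with scramble and from 1051 to 1159 with the hairpin. The St6gal sum ran from 436 to 579 in rescue replicates 1 and 2 and from 282 to 422 in replicates 3 and 4. The St6galnac sum differed in the other direction, from 868 to 982 in rescue replicates 1 and 2 and from 1064 to 1230.3 in replicates 3 and 4.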

How the data were processed

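RNA was sequenced in 18 libraries, 6 of the knockdown and 12 of the rescue. Per the labels' protocols, stranded libraries were made from ribosome-depleted total RNA. The submitters' processing notes name build mm9, DESeq2 1.24.0 and TopHat2 2.1.1. For the read counter, its strand setting and any removal of duplicate reads, the method is not given in the sources used. The authors deposited 1 table of normalized signal per experiment, each library's gene counts divided by 1 size factor, and 100% of values were whole multiples of 1 read within 0.1 read. Each table was fitted alone.

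Genes with a value of at least 10 in 3 (knockdown) or 4 (rescue) libraries were tested with limma 3.58.1 in R 4.3.3 (limma-trend, 2-sided) on log2(value + 1), a scale that understates changes of low genes, with group as the only term, 1 fit for all 12 rescue libraries and Benjamini-Hochberg adjustment over all genes tested. Adjusted p-values are limma's throughout. The fits keep near-identical libraries apart unless named as merged. Same-numbered libraries deviated together from their group means, so a fit with the replicate number as block is given. Their correlation was 0.24 to 0.54 in the knockdown and 0.55 to 0.81 in the rescue. Other-numbered knockdown libraries correlated at -0.47 to 0.33, which overlaps the range of the same-numbered ones, so pairing in the knockdown is not clear. In the rescue, other-numbered libraries of the same replicate set correlated at 0.56 to 0.83, and libraries across the sets at -0.76 to -0.49, so the set was also entered as a term. The labels name no cause for the 2 sets. Alternatives were pseudocounts of 0.5 and 5, no filter, quantile scaling, edgeR 4.0.16 on recovered reads, each set alone and leaving out each library. The fits were also run on simulated counts of independent libraries, without replicate sets, pairs or near-identical libraries. That run could not test how the fits handle these features.

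Members, lists and tests were chosen with earlier results of these data known. Values are given for members called in any of these fits, the highest of each family, the 5 with the largest differences per comparison and between the sets (mean of at least 50), and list genes called with group only. Genes below or near the level limit, Galnt4, Galnt6, Mgat4b, B3gnt4, B3gnt9, St6galnac4, Csgalnact2, Cog4 and the genes whose promoters are printed were named after their values were seen. Sequences of promoters are RefSeq's, and coordinates are of GRCm38.p6, not of the authors' build.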

Additional observations from a re-analysis of the deposited data

Results flagged for a closer look

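The difference of Chst10 between RBPJ F261A/A284V and RBPJ WT itself differed between the replicate sets, by 0.85 on the log2 scale (limma, interaction of group and set, SE 0.19, adjusted p = 0.0424). Chst10 read 143 and 128 with the mutant against 65.0 and 63.3 with RBPJ WT in replicates 3 and 4, and 111 and 133 against 96.2 and 114 in replicates 1 and 2. The interaction was called for 67 of 11691 genes (0.573%) and for 1 of the 44 members. With near-identical libraries merged, the Chst10 difference was 0.86 with an adjusted p of 0.878, and 0 members were called. The interaction was chosen after seeing the data.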

How the results depend on the processing

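In the knockdown, 4 members were higher and 2 lower with group only. These counts became 2 and 1 with no filter on low values (1.45% of all genes called), where B4galt3, Fut8 and St3gal3 lost their calls, and 16 and 5 with the replicate block (22.2%). Quantile scaling gave 6 and 3 (7.85%), without St3gal3 and with B3gnt9, Chst2, Galnt11 and St6gal1. Leaving out each library in turn gave 0 to 9 higher and 0 to 2 lower (0 to 8.95% of all genes called). With the replicate block and without replicate 1, 2 rather than 5 were lower, and the 3 fits that each left out 1 pair gave 15 to 16 higher and 2 to 5 lower (13.2% to 27.6% of all genes).

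For RBPJ WT against the empty vector, 0 members were higher with group only. Quantile scaling gave 1 (0.299% of all genes called in either direction), the replicate block 4 (2.23%), the set as a term 3 (2.42%), merged near-identical libraries with that term 3 (1.52%), replicates 1 and 2 alone 1 (1.0%), and replicates 3 and 4 alone 2 (1.26%). With the set as a term, leaving out each library gave 2 to 4 higher and 0 to 1 lower (1.53% to 2.12%). For the mutant against the empty vector it gave 0 to 1 higher (0.266% to 1.37%).

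For the mutant against RBPJ WT, 0 members were higher and 1 lower with group only. The replicate block gave 2 and 6 (4.74% of all genes), the set as a term 3 and 7 (5.12%), and merged libraries with that term 1 and 2 (1.96%). Replicates 3 and 4 alone gave 2 and 5 (7.05%), and replicates 1 and 2 alone gave 2 lower (1.63%). Leaving out each library gave 0 to 1 lower with group only (0.171% to 0.318%), and 1 to 5 higher and 4 to 7 lower with the set as a term (2.97% to 9.79%). Tests within 1 set treat near-identical libraries as replicates, so their p is too small. The fits with the set or the block on all 12 libraries also keep them apart, so their p may be too small as well. Merged fits still keep empty vector replicates 3 and 4 apart, so this limit may hold there too.

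Over the 35 named values and their alternatives, 408 kept their side of the threshold, 63 came to pass it, 33 no longer did and 0 changed direction. The cause of each change was not tested, and fits that left out a library also had fewer of them. Leave-one-out fits with the block or the set were chosen after seeing the data. Depth limits the low members: 1 read is worth 0.634 to 1.54 normalized values.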
